A study of Rattus norvegicus with 5 samples.

Results

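The arrays of cells given insulin for 15 min and for 0 min were compared to describe which transcripts had moved by the earliest time of a time course. They are 2 of 5 arrays, chosen by the time in their labels, and the times are 0, 15, 30, 45 and 60 min after 10 nM insulin, each on 1 array. All 5 come from Fao, a rat hepatoma cell line used as a model of the insulin-responsive hepatocyte. Every culture had grown for 2 days with 10% fetal bovine serum and had then been starved for 16 h in medium that held 10 nM dexamethasone, a synthetic glucocorticoid. The glucocorticoid is thus shared by all groups, the 0 min array is the only baseline, and insulin and the 15 min of time cannot be told apart. A level below is log2 of the spot signal over the 75th percentile of the spots of its array, and a change is the 15 min level minus the 0 min level. With 1 array a side there is no replicate error and no p-value.

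Insulin binds a receptor tyrosine kinase and passes its signal through phosphatidylinositol 3-kinase and Akt and through Ras and ERK. In liver cells Akt keeps FoxO transcription factors out of the nucleus, and ERK acts on factors that are already bound to the promoters of immediate early genes, whose transcription starts without new protein. The mRNAs of immediate early genes, of many cytokines and of many signal inhibitors carry elements that speed their decay, so their level can drop as well as climb within minutes. Most mRNAs for plasma proteins and metabolic enzymes last for hours and serve here as the comparison. Spot signal gives the amount of RNA, so slower synthesis and faster decay cannot be told apart, nor can less RNA in every cell and fewer cells that hold it.

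Promoters of 4 genes on which the comparison turns are shown first, as background to their names: Ier2 and Dusp1, which were higher at 15 min, and Cxcl1 and Nr4a1, which were lower. Each is the 250 bases before the annotated start of the gene in RefSeq on build GRCr8, read 5′ to 3′ on the strand of the gene. Capitals mark the cyclic AMP response element core TGACG on either strand (CGTCA when it lies on the other), its palindrome TGACGTCA, which holds the core on both strands, and matches to the NF-kB consensus.
Ier2, chr19:40399123-40399372, plus strand: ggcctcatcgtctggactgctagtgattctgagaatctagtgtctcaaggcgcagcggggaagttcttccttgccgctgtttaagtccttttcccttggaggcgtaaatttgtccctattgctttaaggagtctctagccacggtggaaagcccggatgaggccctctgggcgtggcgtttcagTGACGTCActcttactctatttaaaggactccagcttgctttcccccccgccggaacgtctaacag
Dusp1, chr10:17184603-17184852, plus strand: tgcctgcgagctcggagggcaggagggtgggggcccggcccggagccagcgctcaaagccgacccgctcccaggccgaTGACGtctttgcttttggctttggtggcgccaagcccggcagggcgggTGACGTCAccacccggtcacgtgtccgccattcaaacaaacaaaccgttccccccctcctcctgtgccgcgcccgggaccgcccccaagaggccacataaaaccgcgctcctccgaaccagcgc
Cxcl1, chr14:17479322-17479571, minus strand: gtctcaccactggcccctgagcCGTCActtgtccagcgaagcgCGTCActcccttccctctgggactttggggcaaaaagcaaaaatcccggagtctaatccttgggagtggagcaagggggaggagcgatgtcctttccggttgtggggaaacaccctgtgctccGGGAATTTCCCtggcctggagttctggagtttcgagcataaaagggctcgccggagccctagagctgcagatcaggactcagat
Nr4a1, chr7:134259888-134260137, plus strand: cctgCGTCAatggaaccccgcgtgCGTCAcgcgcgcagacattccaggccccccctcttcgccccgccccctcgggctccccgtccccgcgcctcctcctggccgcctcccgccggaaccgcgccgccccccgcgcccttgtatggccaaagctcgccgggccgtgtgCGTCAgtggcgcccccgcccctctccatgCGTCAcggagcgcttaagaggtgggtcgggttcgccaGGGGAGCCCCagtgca
The palindrome stood in Ier2 and Dusp1 and in 1.59% of 33469 promoter windows of the same length. The core stood in all 4 windows and in 18.2% of all windows. The NF-kB consensus matched in Cxcl1, on overlapping bases of both strands, and in Nr4a1, on both strands of the same bases, against 6.33% of all windows. The CArG box of serum response factor, searched by its consensus, and the letters TATAAA were not found in these 4 windows. A match describes letters and is no measurement of binding. The 4 genes were picked with their changes known, and promoters of Fos, Atf3, Trib1 and Klf10 were not available. Whether motifs differ between higher and lower genes was not tested.

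The hepatocyte label was checked against 12 markers, of which 12 were well above background on both arrays, and their summed signal over the 75th percentile was 1097 at 0 min and 1103 at 15 min. Markers of other liver cells were measured on both arrays for 7 of the 16 on the array, with a summed signal of 3.88 and 3.76. The share of the 43379 non-control spots that cleared background was 52.6% at 0 min and 51.5% at 15 min. Of 15278 named genes on the array, 9015 were measured on both, 335 were well above background at 0 min alone and 160 at 15 min alone. The 0, 15, 30 and 45 min arrays share a slide and a scan, while the 60 min array lies on another slide, so slide and time cannot be told apart in its levels.

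Few transcripts had moved by 15 min. Of 9015 genes, 5 were at least 2-fold higher (0.0555%) and 12 at least 2-fold lower (0.133%), and at 1.5-fold 60 were higher (0.666%) and 43 lower (0.477%). The median change was 0.01 and the SD over genes 0.193, with 4841 genes above 0 (53.7%) and 4174 below (46.3%). Scaled on 8 labelled control transcripts added to the RNA, 1445 genes were above 0 and 7570 below. With that scaling the median of all genes was −0.16, and 3 genes were 2-fold higher and 19 lower. It lowers every change by 0.18, so changes between 0 and 0.18 have no settled direction, and the others are given relative to the 75th percentile.

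Technical spread could be measured on 136 probes printed in at least 8 usable spots. The spots of an array had a median SD of 0.138 at 0 min and 0.135 at 15 min, which gives the change of a single spot a technical SD of 0.193. With normexp, a model of background plus signal, fitted on all spots, the sign of 32 of 102 named genes turned, among them Trib1, Nr4a3, Cxcl10, Psat1, Jun, Btg2, Adm, Cdkn1a and Actb. On the 15 min array that fit put the mean background at −216 units, against −10.2 at 0 min, and 5 spots there had a local background over 100 units above the spot. Refitted without such spots, a choice made after the data were seen, the model turned the sign of 2.

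The spread depended on signal. Among the 773 genes with a mean level below −3 the SD of the change was 0.287, and among the 2181 genes at 3 or above it was 0.146. Of the 5 genes 2-fold higher, 4 had a mean level below −1, and Ier2 alone stood at 3 or above. Of the 12 genes 2-fold lower, Cxcl1, Atf3 and Nr4a1 stood at 3 or above and Nfil3 between 1 and 3. All 4 genes past 2-fold at a level of 3 or above were immediate early factors or the chemokine Cxcl1.

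**Figure D1:**
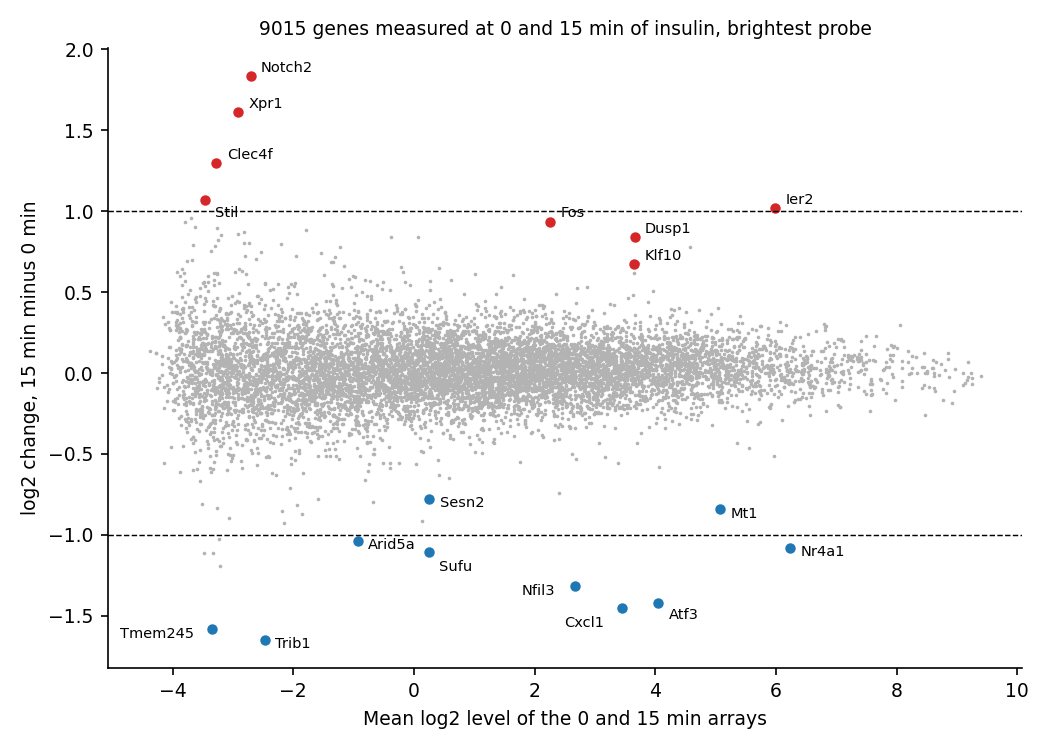
Log2 change at 15 min against the mean log2 level of the 0 and 15 min arrays for 9015 genes, each by its brightest probe, with dashed lines at 2-fold. The cloud narrows from left to right, and among bright genes Atf3 at −1.42, Cxcl1 at −1.45, Nr4a1 at −1.08 and Ier2 at 1.02 lie outside it.

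Trib1 was the lowest gene of the comparison and the clearest case of agreement between probes. It encodes a pseudokinase that brings C/EBP alpha to the ubiquitin ligase COP1 and is known from genetics of plasma lipids in liver. Its probe that was brighter on average, at chr7:96448746-96448805 on rn4, read −1.64, −3.29, −1.31, −0.83 and −1.24 at 0, 15, 30, 45 and 60 min. Its other probe, at chr7:96448453-96448512 and 234 bases away, read −1.55, −3.53, −1.22, −0.77 and −1.31. Both probes were lowest at 15 min and back above their 0 min level at 30 min. The changes at 15 min were −1.65 (3.13-fold lower) and −1.98 (3.96-fold lower). The deposited signals behind them were dim at 15 min, 27.2 and 23.0 units after 95.9 and 102.6 units, and the change of the brighter probe depended on the background correction. It was −0.80 with the refitted normexp model and 0.25 with normexp on all spots.

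The other Tribbles genes were lower by less. Trib3, which binds Akt, read 5.89, 5.59, 5.58, 6.44 and 5.72, a change of −0.30. Stk40, a related pseudokinase, read 0.33, 0.01, 0.02, 0.39 and 0.95, a change of −0.31. Trib2 was not well above background on either array.

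Cxcl1, a chemokine that draws neutrophils and whose mRNA is short-lived, read 4.18 at 0 min, 2.73 at 15 min, 4.99 at 30 min, 4.35 at 45 min and 3.08 at 60 min (probe at chr14:18690468-18690527, rn4). The 15 min level was the lowest of the 5 arrays, at a change of −1.45, or 2.73-fold lower. Over 9 of 17 chemokine and NF-kB feedback genes that were measured on both arrays, 9 were below 0, beside 46.3% of all genes, with a median change of −0.27 beside 0.01 for all genes, and the 15 min level was the lowest of 5 arrays in 8, beside 15.3% of all genes. Cxcl1 alone passed 1.5-fold, beside 0.477% of all genes lower by that much. The others ranged from −0.35 for Cxcl10, a chemokine of the interferon response, to −0.03 for Nfkb1, a subunit of NF-kB. Nfkbia is counted below 0 by its brighter probe, while its dimmer probe had a change of 0.55. Across all alternatives run, the median of the list ran from −0.44 to −0.13, and it was −0.13 with the refitted normexp model.

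Probes disagreed for Nfkbia, the I kappa B alpha inhibitor of NF-kB. Its brighter probe read 4.06 at 0 min and 3.73 at 15 min, a change of −0.33, and then 5.07, 5.27 and 4.32. A dimmer probe 163 bases away read −1.33, −0.78, −0.29, −1.15 and −2.54, a change of 0.55. Nfkbia thus has no settled direction at 15 min.

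Among immediate early transcription factors, members stood at both ends of the comparison. Of 27 listed, 21 were measured on both arrays, and 4 were at least 1.5-fold higher (Ier2, Fos, Klf10 and Egr2), beside 0.666% of all genes, and 3 lower (Atf3, Nr4a1 and Csrnp1), beside 0.477%. The median of the list was −0.05, with 9 members above 0 and 12 below, beside 53.7% and 46.3% of all genes.

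Atf3, a stress-induced bZIP factor, read 4.76, 3.34, 6.64, 6.47 and 5.92 over the 5 times (probe at chr13:107191691-107191749, rn4). The change at 15 min was −1.42, or 2.67-fold lower. Nr4a1, an orphan nuclear receptor induced within minutes by many stimuli, read 6.78, 5.69, 7.41, 7.38 and 7.20 (chr7:140020442-140020501), a change of −1.08, or 2.12-fold lower. Atf3 and Nr4a1 were both lowest on the 15 min array and higher at every later time than at 0 min. Csrnp1, a nuclear factor rich in cysteine and serine, read −0.47, −1.14, 0.21, 0.18 and 0.40, a change of −0.66, or 1.58-fold lower.

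Smaller changes in the same direction had a second probe to set beside them in 2 cases. Klf6, a Krüppel-like factor, read 5.58, 5.15, 6.36, 6.01 and 5.21 with a change of −0.43, and −0.66 by a probe 2681 bases away. Nr4a3, a relative of Nr4a1, had changes of −0.57 and −0.36 by probes 913 bases apart, from a level of −2.32 by the brighter one. Maff, a small Maf protein, had a change of −0.54 by 1 probe.

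Ier2, a nuclear regulator of the immediate early class, was the only bright gene at least 2-fold higher. It read 5.48, 6.50, 6.90, 5.69 and 5.21 at the 5 times (chr19:25160648-25160707), a change of 1.02, or 2.02-fold. Scaling on the added control transcripts gave 0.84, which is under 2-fold, and normexp on all spots gave 0.32. Fos, a subunit of AP-1, read 1.78, 2.72, 3.49, 0.77 and −0.57 (chr6:109561099-109561158), a change of 0.94, or 1.91-fold, and of 0.32 with normexp on all spots. Both were higher still at 30 min and stood below their 0 min level at 60 min.

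Klf10, a Krüppel-like factor induced by TGF-beta, was higher by both of its probes. The brighter probe read 3.32, 3.99, 3.55, 3.77 and 4.04, a change of 0.68, or 1.60-fold. The probe 817 bases away read −1.47, −0.95, −1.44, −0.96 and −0.15, a change of 0.52. Both probes were lower at 30 min than at 15 min. With normexp on all spots the change of the brighter probe was 0.0043, and with the refitted model 0.62. Egr2, a zinc finger factor, read 1.34, 1.95, 3.80, 2.74 and 0.10, a change of 0.61, or 1.52-fold.

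The probes with many spots show the precision of single genes. Jun, the other subunit of AP-1, had a level of 4.07 ± 0.17 at 0 min and 4.42 ± 0.21 at 15 min (SD, n = 10 spots of 1 array each), and then 6.06, 5.36 and 4.60. Its change of 0.35 was larger than the spread between spots. Egr1, a zinc finger factor and a common marker of ERK signalling, read 4.57 ± 0.18 and 4.61 ± 0.16 (SD, n = 10 spots each), a change of 0.04 that lay within that spread, and 5.53 at 30 min. Spots share an array and a culture, so these spreads cover printing and scanning only.

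**Figure D2:**
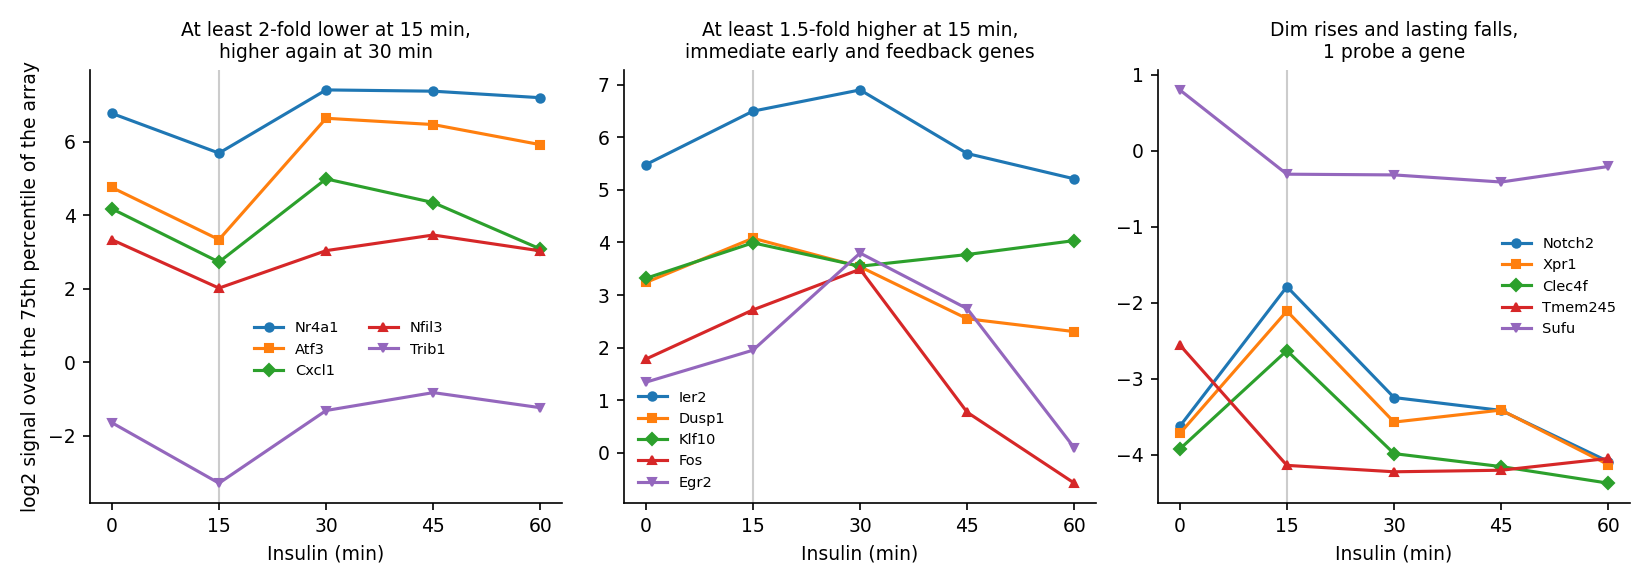
Log2 level over the 75th percentile of the array at 0, 15, 30, 45 and 60 min of insulin, 1 array a time, brightest probe, with a grey line at 15 min. The 5 genes at the left are lowest at 15 min, the 5 in the middle are higher at 15 than at 0 min, and at the right Notch2, Xpr1 and Clec4f are high on the 15 min array while Tmem245 and Sufu stay low after it.

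Genes that limit MAP kinase signalling were mostly below 0. Of 16 listed, 9 were measured on both arrays, 2 above 0 and 7 below, beside 53.7% and 46.3% of all genes. The median was −0.10, and 1 was at least 1.5-fold higher, beside 0.666% of all genes. That was Dusp1, a nuclear phosphatase of MAP kinases, which read 3.24, 4.08, 3.54, 2.55 and 2.31, highest at 15 min, with a change of 0.84, or 1.79-fold, and of 0.20 with normexp on all spots. Dusp5, a phosphatase of ERK, read 2.53, 2.11, 3.64, 2.98 and 3.01, a change of −0.42, and was lowest at 15 min. These 2 phosphatases of the same family were thus at opposite ends of the list. Dusp6 was measured at 1 of the 2 times alone.

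Nfil3, a bZIP repressor that acts in the clock and in immune cells, read 3.34, 2.02, 3.04, 3.46 and 3.03 (chr17:18107192-18107251), a change of −1.32, or 2.49-fold lower. Arid5a, an RNA-binding protein that stabilises inflammatory mRNAs, read −0.41, −1.44, 0.29, 0.94 and 0.92, a change of −1.03. Tifa, an adaptor that activates NF-kB through TRAF6, read 0.59, −0.32, 0.61, 1.02 and 1.25, a change of −0.91. All 3 were lowest on the 15 min array. Arid5a and Tifa fall outside the rule that chose the named genes and were added after their values were seen.

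Clock and glucocorticoid-induced genes had a median of 0.00 over 11 measured members of 16. None passed 1.5-fold, beside 0.666% of all genes higher and 0.477% lower. Bhlhe40, a clock repressor, read −0.19, −0.65, −0.10, 0.65 and 1.13, a change of −0.46. Per2, a period protein, read 0.47, 0.11, 0.53, 1.01 and 1.87, a change of −0.36. Both were lowest at 15 min.

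Cytokine feedback genes were mostly close to 0, and Socs3 was the lowest. Socs5 at −0.29 and Bcl6 at −0.26 each rest on 1 probe of 1 spot, beside a technical SD of 0.193 for such a change. Across all alternatives run, Socs5 ran from −0.47 to 0.85 and Bcl6 from −0.69 to −0.21. Socs3, which blocks JAK kinases and the insulin receptor, read −0.47, −1.03, −0.14, −0.52 and −1.06, a change of −0.56, or 1.48-fold lower. It was −0.39 with the refitted normexp model and −0.074 with normexp on all spots. The list held 9 measured members of 12, with 3 above 0 and 6 below, beside 53.7% and 46.3% of all genes. None passed 1.5-fold, beside 0.666% of all genes higher and 0.477% lower. The median of the list was −0.11, and 0.03 with the refitted normexp model.

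Metallothionein was lower by both of its probes. Mt1, a zinc-binding protein that glucocorticoids and metals induce, read 5.50, 4.66, 6.14, 7.04 and 6.90, a change of −0.84, or 1.79-fold lower. The probe 503 bases away read 0.80, 0.09, 1.34, 1.73 and 0.77, a change of −0.71. Each probe had its lowest value at 15 min.

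Of 16 short-lived regulators of survival and the cell cycle that were measured, 10 were above 0, a share near the 53.7% of all genes. Their median was 0.05, and none passed 1.5-fold, beside 0.666% of all genes higher and 0.477% lower. Plk3, a stress-activated polo-like kinase, read 0.67, 0.13, 1.46, 1.61 and 1.84, a change of −0.54, with −0.40 by a probe 2470 bases away. Gadd45g, a growth arrest gene, read 5.78, 5.32, 6.09, 5.99 and 6.62, a change of −0.46. Cdkn1a, the p21 inhibitor of cyclin-dependent kinases, had changes of 0.37 by a 10-spot probe and 0.32 by another 1031 bases away. Rnd1, which is outside the lists, read 1.55, 1.11, 2.50, 3.61 and 3.59, a change of −0.43, with −0.54 by a probe 2303 bases away. Plk3, Gadd45g and Rnd1 were lowest on the 15 min array.

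Genes of the ATF4 and amino acid response were below 0 almost throughout. Of 16 measured members of 19, 1 was above 0 and 15 below, beside 46.3% of all genes below, at a median of −0.22. The 15 min level was lowest of the 5 arrays in 10, beside 15.3% of all genes. Sesn2, a leucine sensor that restrains mTORC1, read 0.65, −0.13, 0.20, 0.66 and 0.32, a change of −0.78, or 1.71-fold lower. It was the only member past 1.5-fold, beside 0.477% of all genes lower by that much. Slc3a2, the heavy chain of amino acid exchangers, read 4.35, 3.77, 3.94, 4.25 and 4.24, a change of −0.58. Psat1, an enzyme of serine synthesis, read −1.07, −1.54, −1.26, −1.12 and −0.99, a change of −0.47. Atf4 itself, the factor that drives the response, had a change of −0.08.

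The FoxO and gluconeogenesis genes that insulin is known to repress had moved little. Of 20 measured members of 23, 7 were above 0 and 13 below, beside 53.7% and 46.3% of all genes, at a median of −0.07. None passed 1.5-fold, beside 0.666% of all genes higher and 0.477% lower. Gadd45a, a FoxO target, read 3.66 at 0 min and 3.94, 4.46 and 4.27 at 30, 45 and 60 min, and its 15 min level was lower than all of these, at a change of −0.56, or 1.47-fold. Pck1, the phosphoenolpyruvate carboxykinase of gluconeogenesis, had changes of −0.18 and −0.25 by its probes. G6pc1, which releases free glucose from glucose-6-phosphate, had a change of −0.01 by its brightest probe. Tat, a liver enzyme that glucocorticoids induce, had a change of −0.29.

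Genes for mRNA decay and antiproliferative proteins had a median of 0.16, with 9 of 13 measured members above 0, beside 53.7% of all genes. Btg2, an antiproliferative partner of the CCR4-NOT deadenylase, read 3.71, 4.21, 5.08, 4.29 and 3.70, a change of 0.50. The Id and TGF-beta feedback list had a median of 0.13 over 11 members and the hypoxia list 0.11 over 18. The mRNA decay and hypoxia lists each had 1 member at least 1.5-fold higher, beside 0.666% of all genes. These were Cnot4 at 0.61 and Pfkfb3 at 0.87, both dim, with 0 min levels of −3.08 and −3.25. Adm, the vasodilator adrenomedullin and a hypoxia target, read 3.39 ± 0.12 and 3.88 ± 0.07 (SD, n = 9 spots of 1 array each), a change of 0.48, and then 3.69, 3.13 and 3.02. Its 15 min level was the highest of the 5 arrays. Scaled on the added control transcripts, the medians of these 3 lists were −0.02, −0.05 and −0.07, so their direction is not settled. The chemokine, ATF4, Tribbles, FoxO, immediate early and MAP kinase feedback lists had medians below 0 under every alternative run. For the last 3 of these the value nearest 0 was −0.02, −0.04 and −0.05, which is close to no change. The median of all genes was also below 0 with spike-in scaling (−0.16) and normexp on all spots (−0.21). It was −0.01 with quantile scaling and −0.02 with detected-probe scaling, so the sign alone does not set a list apart there. With normexp on all spots the immediate early list (−0.04) stood above all genes, MAP kinase feedback (−0.21) level with them, and the others below.

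**Figure D3:**
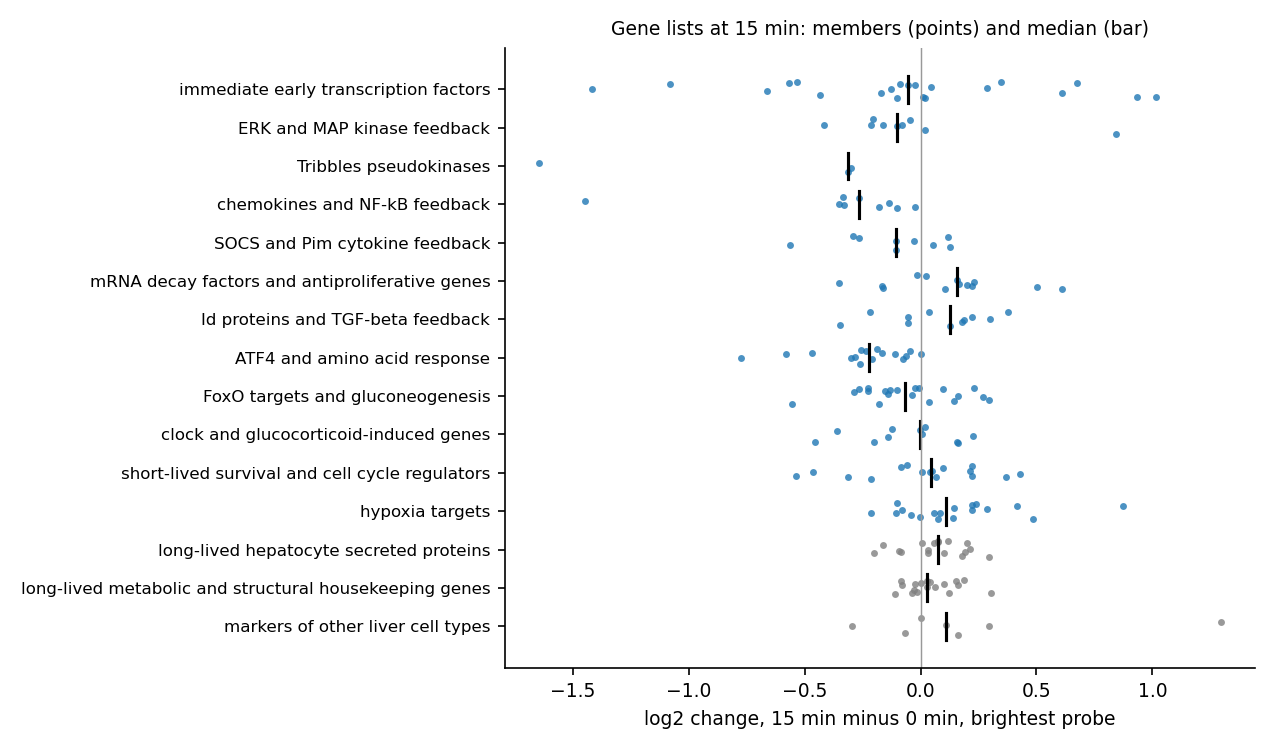
Log2 change at 15 min of the measured members of 15 gene lists, with a black bar at each list's median, short-lived and regulated groups in blue and long-lived or other-cell groups in grey. The ATF4 list (median −0.22) and the chemokine list (−0.27) lie to the left of 0, and the immediate early factors spread from −1.42 to 1.02.

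Long-lived transcripts were close to 0. Over 17 genes of hepatocyte secreted proteins the median was 0.07 and the changes ran from −0.20 for Fgg, a fibrinogen chain, to 0.30 for Apob, the protein of very low density lipoprotein. Over 18 housekeeping genes the median was 0.03, from −0.11 for Eef1a1, a translation factor, to 0.31 for Actb, beta-actin. No member of either list passed 1.5-fold, beside 0.666% of all genes higher and 0.477% lower, so lists of this size would hold few or none. Gapdh had a change of 0.03. Scaled on the added control transcripts the medians were −0.11 and −0.15. Both lists were bright, with median 0 min levels of 6.41 and 4.80 beside 0.84 for all genes, and bright genes spread less. Whether long life accounts for the small changes was not tested.

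Agreement between probes was examined in 2167 genes with at least 2 different probes measured on both arrays. All probes were at least 1.5-fold higher in 3 (0.138%) and at least 1.5-fold lower in 2 (0.0923%), whereas the brightest probe alone passed in 11 (0.508%) and 4 (0.185%). In 965 genes (44.5%) the probes had opposite signs, and in the 1793 genes with exactly 2 probes the median difference between their changes was 0.14 and the 95th percentile 0.45. The 2 agreeing lower genes were Trib1 and Mt1. At 1.3-fold for each probe 13 genes were higher (0.6%) and 6 lower (0.277%), and the lower ones included Trib1, Mt1, Klf6, Plk3 and Rnd1.

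The 3 genes whose probes were all at least 1.5-fold higher were Apln, Rbak and Ghrh, and each had a 0 min level below 0. Apln, the peptide ligand of the apelin receptor, read −1.91, −1.17, −1.69, −2.05 and −2.04, a change of 0.74, with 0.91 by a probe 1606 bases away. Rbak, a zinc finger repressor that binds RB1, read −0.53, 0.12, −0.29, −0.16 and 0.14, a change of 0.66, with 0.80 by a probe 818 bases away. Ghrh, growth hormone releasing hormone, read −1.49, −0.83, −1.45, −1.18 and −1.56, a change of 0.66, with 0.80 by a probe 4575 bases away. Scaled on the added control transcripts, no gene passed, with Apln at 0.56, Ghrh at 0.48 and Rbak at 0.48. Ranbp6, an importin-like protein, came just under the threshold, with 0.61 and 0.57 by probes 228 bases apart.

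**Figure D4:**
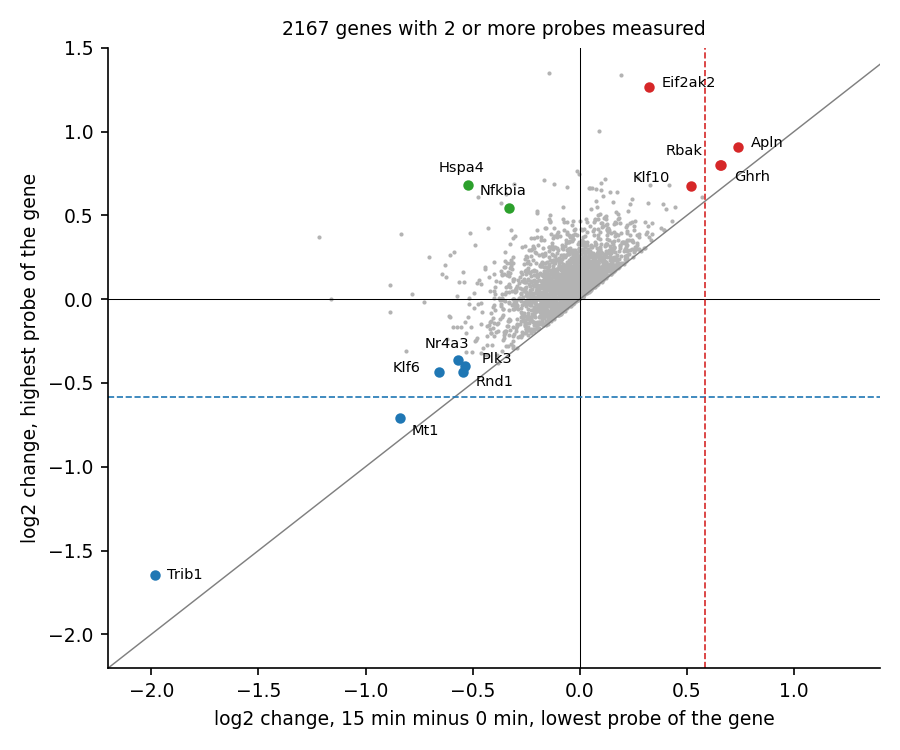
Change at 15 min by the lowest probe (horizontal, log2) and by the highest probe (vertical, log2) of 2167 genes with at least 2 probes. Dashed lines are at 1.5-fold: Trib1 and Mt1 lie below the blue line, Apln, Rbak and Ghrh lie right of the red line, and Nfkbia and Hspa4 have probes of opposite sign.

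The largest increases rest on dim single probes. Notch2, a receptor of cell contact signals, read −3.62, −1.79, −3.25, −3.41 and −4.09, a change of 1.84, or 3.57-fold, from deposited signals of 24.3 and 77.0 units. Xpr1, a phosphate exporter, read −3.72, −2.11, −3.57, −3.41 and −4.13, a change of 1.61. Clec4f, a lectin of Kupffer cells, read −3.92, −2.63, −3.98, −4.15 and −4.37, a change of 1.29. Each was high on the 15 min array alone. With the refitted normexp model the changes were 0.79, 0.72 and 0.48, all under 2-fold.

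Stil, a centriole protein, had deposited signals of 18.8 and 34.9 units, a change of 1.07 that was 0.50 under that model. Crisp3, a secreted cysteine-rich protein, and Foxa1, a pioneer factor of liver genes, had changes of 0.96 and 0.93 from levels of −4.17 and −4.26. The other Kupffer and immune markers measured beside Clec4f did not share its size: Cd68 had a change of 0.30 and Cd14 of −0.29. Adgre1 was not well above background on either array, and no probe was matched to Ptprc. The part of other cells in the Clec4f value was not tested.

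A further set of 2-fold lower genes was high on the 0 min array alone. Sufu, an inhibitor of Hedgehog signalling, read 0.80, −0.31, −0.32, −0.41 and −0.21, a change of −1.11, and falls outside the rule that chose the named genes. Tmem245, a membrane protein, read −2.55, −4.14, −4.22, −4.20 and −4.05, a change of −1.58. The dim probes of C3h9orf50, Nrgn, Or8i2 and Smpdl3a (the last added after its value was seen) had changes of −1.19, −1.11, −1.11 and −1.03 from levels of −2.62, −2.77, −2.92 and −2.72. With the refitted normexp model none of these genes was 2-fold lower, with Tmem245 at −0.47, C3h9orf50 at −0.33, Nrgn at −0.28 and Or8i2 at −0.16, and the 4 genes that were are Cxcl1, Atf3, Nfil3 and Nr4a1. With normexp on all spots the change turned to 0.79 for Tmem245, 0.88 for C3h9orf50, 0.89 for Nrgn and 1.03 for Or8i2.

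Of the 43 genes at least 1.5-fold lower, 27 were lowest of the 5 arrays at 15 min (15.3% of all genes) and 23 were highest at 0 min (13.6% of all genes). Of the 60 at least 1.5-fold higher, 42 were highest at 15 min (17.9% of all genes) and 22 were lowest at 0 min (16.1%). Choosing genes by the difference between these 2 arrays raises all 4 counts, so they describe the members and support nothing. Among 8265 transcripts that carry no matched gene name, 14 were at least 2-fold higher (0.169%) and 36 lower (0.436%). The median 0 min level was −1.69 for the lower genes, −3.15 for the higher ones and 0.84 for all genes.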

How the data were processed

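Each of the 5 samples was 1 Agilent 1-colour array of Fao RNA (design 014879, 700 ng of total RNA, Cy3, per the labels). Per the file headers, the authors' deposited intensity values come from Feature Extraction 9.5.3.1 and already have background subtracted within each array. The deposited series matrix holds the authors' log2 values, whose 15 min changes correlated with those used here at 1.00 over 19746 probes. How it was made is not stated.

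Outlier spots (123 at 0 min, 126 at 15 min) and control spots were left out, spots of a probe averaged, the processed signal scaled to the 75th percentile (299.9 and 266.0 units) and log2 taken. A probe counted as measured when the deposited flag put it well above background on both arrays. Of 41012 probes, 10928 were named by accession and 8654 by symbol through a RefSeq table (GRCr8), and 21430 kept their original name. The brightest probe stands for a gene. Probe coordinates are those of the files, on rn4.

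Members, lists and tests were chosen with earlier results of these data known. Named genes were the 12 highest and 12 lowest with agreeing probes, the 8 highest and 8 lowest by brightest probe, up to 4 members of each list, the 3 highest and 3 lowest of probes with 8 or more spots, and a few set genes, not all of which are reported here. Counting was tested on simulated data. Alternatives were normexp (offset 50), quantile, detected-probe and spike-in scaling, other filters and folds, probe means and the series matrix, run with limma 3.58.1 (R 4.3.3), Python 3.11.15, numpy 2.4.6 and pandas 2.3.3. With no replicates, precision can be described only by the spread between spots, the differences between probes of a gene and the shifts between alternatives. None of these covers the spread between cultures.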

Additional observations from a re-analysis of the deposited data

How the results depend on the processing

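No paired analysis was possible because each time has 1 array and the result comes from no test. Genes at least 2-fold higher (5) numbered 978 with normexp on all spots, 0 with normexp refitted, 3 with spike-in scaling, 98 with no filter on dim probes and 60 at 1.5-fold. Genes at least 2-fold lower (12) numbered 4 with normexp refitted, 19 with spike-in scaling, 95 with no filter, 7 with the filter applied on all 5 arrays and 43 at 1.5-fold. Genes with agreeing higher probes (3) numbered 138 with normexp, 0 with normexp refitted, 0 with spike-in scaling, 13 at 1.3-fold and 0 at 2-fold. Genes with agreeing lower probes (2) numbered 141 with normexp, 4 with spike-in scaling, 4 with no filter, 6 at 1.3-fold and 1 at 2-fold. With normexp on all spots, list medians moved to 0.54 for SOCS and Pim, −0.062 for mRNA decay, −0.73 for ATF4, −0.39 for FoxO, −0.31 for survival and cell cycle, −0.33 for hypoxia, −0.62 for hepatocyte secreted proteins, −0.62 for housekeeping and 0.93 for other liver cells. That fit also turned Trib1 to 0.25, Tmem245 to 0.79, C3h9orf50 to 0.88, Nrgn to 0.89 and Or8i2 to 1.03, and the cause was tested only by the refit, under which all 5 were below 0. Under quantile scaling and the percentile over detected probes, no count moved by over 1.5 times. Across all alternatives run, the changes stayed between −1.98 and −1.44 for Cxcl1, −2.01 and −1.42 for Atf3, −1.74 and −1.30 for Nfil3, −1.80 and −1.08 for Nr4a1, and 0.32 and 1.02 for Ier2. Signal over background limits the dim genes: below a mean level of −3 the SD of the change was 0.287.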

Other observations

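Among 5475 genes with a 0 min level above 0, 10 were at least 1.5-fold higher and 11 lower. Over all 9015 genes 60 were higher (0.666%) and 43 lower (0.477%), so such changes were rarer among these brighter genes. The genes named here were picked by their values at 15 min. Gdf15, a stress-induced hormone that acts on the hindbrain, read 4.19, 4.97, 5.40, 4.62 and 4.25 at 0, 15, 30, 45 and 60 min, a change of 0.78 at 15 min. Zdbf2, an imprinted zinc finger gene, read 3.33, 3.95, 3.88, 4.01 and 3.33, a change of 0.62. Shoc2, a scaffold that helps Ras activate RAF, read 0.10, 0.75, 0.61, 0.62 and 0.06, a change of 0.65. All 3 were close to their 0 min level again at 60 min. Hspa4, a heat shock protein, had changes of 0.68 and −0.52 by its probes and so no settled direction.

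On the lower side, Cyp7a1, the rate-limiting enzyme of bile acid synthesis, read −1.53, −2.35, −1.47, −1.85 and −2.28, a change of −0.82. Hspa1a, the inducible HSP70, read 5.10 ± 0.16 and 4.78 ± 0.12 (SD, n = 10 spots of 1 array each), a change of −0.32, with −0.46 by its other probe.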
